A study of Rattus norvegicus with 6 samples.

Results

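The genes described here encode the proteins of the cytosolic ribosome, measured in lumbar dorsal root ganglia of rats with and without bone cancer pain. Members were taken by name: every feature whose symbol begins with Rpl or Rps followed by a digit, or with Rplp, apart from the S6 kinases. The feature LOC103692785, described in the deposited table as a gene of ribosomal protein L39, was chosen by its FPKM, which were higher in the bone cancer group in these data. Of 23800 features, 95 were members. They fell into 68 genes with a core name and a single row (39 of the large subunit, 3 of the P stalk and 26 of the small subunit), 10 rows that share 4 core names, 8 paralogs, 7 copies with a suffix in the name, the binding protein Rps19bp1, which is not a ribosomal protein itself, and LOC103692785. Of 76 core names listed, 72 were found in the table.

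In all animals, Sprague Dawley rats, the left tibia was drilled and 10 µL with cells of the rat breast carcinoma line MRMT-1 was injected. The bone cancer pain animals (BCP) were given living cells and the sham animals (sBCP) boiled ones. On day 17 the ganglia of levels L3 to L5 of the injected side were taken, and polyadenylated RNA was sequenced from BCP replicates 1, 2 and 3 and sBCP replicates 1, 3 and 4, which make 3 samples a group. Values of single libraries are given in that order. Whether each sample came from its own animal was not stated, so p-values measure the spread between these samples.

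A ribosome is built from ribosomal RNA and a fixed set of proteins, nearly all present once in each particle, and cells make these proteins in matched amounts. Many of their mRNAs begin with a C followed by a run of pyrimidines, the terminal oligopyrimidine (TOP) motif, through which the mTOR pathway and the RNA-binding protein LARP1 control their translation. In sensory neurons ribosomes and the mRNAs of ribosomal proteins are found in axons as well as in cell bodies. Mammalian genomes also hold many processed copies of ribosomal protein genes, and reads of near-identical copies can be assigned to either of them.

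The first bases of these genes were read from the RefSeq promoter table (build GRCr8), because the TOP motif lies at the start of transcription. A run was defined as a C followed by at least 4 bases that are each C or T, on the transcribed strand only. The base at the annotated start was itself a C followed by at least 4 such bases, whether or not the run also reached upstream, in 21 of 58 promoters of core ribosomal protein genes (57 symbols), or 36.2%, and in 2.63% of all 33469 promoters. Allowing a shift of up to 5 bases, it was found in 36 of 58 (62.1%), against 17.0% of all promoters. For the mitochondrial ribosomal proteins, which are made in the cytosol for another ribosome, the share at the start was 3.08% of 65 promoters, and for a list of elongation factors and other TOP mRNAs it was 0 of 12, with 5 of 12 when the shift was allowed. The following windows hold 10 bases before the annotated start and 20 from the start on, with the run at or nearest to the start in capitals; they belong to 5 of the 6 core genes with the highest level, to the named gene Rpl39 and to Rps6.
Rplp0, chr12:46718371-46718400, minus strand: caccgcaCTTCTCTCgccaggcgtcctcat
Rps15, chr7:10068096-10068125, minus strand: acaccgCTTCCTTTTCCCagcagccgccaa
Rpl10, chrX:157205840-157205869, plus strand: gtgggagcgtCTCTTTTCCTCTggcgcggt
Rplp1, chr8:71290853-71290882, minus strand: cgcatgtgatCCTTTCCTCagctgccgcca
Rps23, chr2:23814507-23814536, plus strand: ccttcctgCCTCTCTTCTCTCTTTCTCTCg
Rpl39, chrX:121195877-121195906, minus strand: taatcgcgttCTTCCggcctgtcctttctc
Rps6, chr5:106420521-106420550, minus strand: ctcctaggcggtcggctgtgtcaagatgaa
The window of Rps6 holds no such run within 5 bases of its annotated start, and neither does that of Rpl41, the sixth of these highest genes. The window of Rpl39 belongs to the gene that RefSeq gives this name. In the deposited table the row Rpl39 lies on the X chromosome at 33721935 to 33722090, minus strand. The row LOC103690821, also described as L39, lies on the same chromosome and strand at 123705235 to 123708211. The build of the deposited table was not given, so which of them, if either, is the RefSeq locus was not determined. A match is a description of letters, and a missing match says only that no such run lies within that distance of the annotated start.

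Expression was given as FPKM, which corrects the fragment number for the length of the transcript and the size of the library. Levels of different genes could thus be compared per length, with less certainty for rows shorter than the insert of 300 bases. LOC103692785 and Rpl39, for example, span 156 bases. A sum of FPKM over rows of unlike length is not a sum of fragments. Each library summed to 479167 to 495494 FPKM. How many fragments this stands for was unknown; relative to BCP replicate 1, the depth read from low values was 1.11 to 1.31 in the remaining 5 libraries. The tissue label was checked against neuronal markers, of which 10 of 10 were found, and their summed level was 15144 ± 817 FPKM (BCP) and 14537 ± 1767 FPKM (sBCP; SD, n = 3 each). Among all 13710 features tested, limma called 2 higher in BCP and 23 lower (adjusted p under 0.05). In bulk samples, fewer cells of a type and less RNA per cell cannot be told apart.

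Core ribosomal protein genes were abundant. Their mean over the 6 libraries ran from 0.665 to 552 FPKM with a median of 176, and 51 of 68 reached 100 FPKM. Rpl41, the shortest protein of the large subunit, was highest at 552 FPKM. It was followed by Rplp0, the base of the P stalk that recruits elongation factors, at 497 FPKM, and by Rps15 of the small subunit at 438. Rpl10, which joins the large subunit late in its assembly, stood at 424 FPKM, Rplp1, a partner of Rplp0, at 419, and Rps23, near the decoding centre, at 393. Together the 68 genes made up 2.67% ± 0.287 of all FPKM in the BCP group and 2.65% ± 0.0519 in the sBCP group (SD, n = 3 each).

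Between BCP and sBCP no core ribosomal protein gene was called. Of the 67 tested with limma on log2(FPKM + 1), 0 were higher and 0 lower at an adjusted p under 0.05, where 0.0146% of all features tested were called higher and 0.168% lower. At an unadjusted p under 0.05 there were 2, Rpl35a and Rpl36a, against 1.98% of all features. The median BCP minus sBCP difference was 0.023 on the log2 scale, where that of all features was -0.011; with quantile normalization the median of the core genes turned to -0.024. A difference above 0 was seen for 44 of 67, or 65.7%, against 45.5% of all features, and this count fell to 28 with quantile normalization and to 11 without BCP replicate 2. The medians by role were 0.021 for the large subunit, 0.024 for the P stalk and 0.038 for the small subunit.

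The precision was fair for most of these genes. For 52 of 67 the difference was within 0.1 of 0, and for 55 the 95% interval lay inside -0.5 to 0.5, which is a ratio of about 1.41 either way. For 5 genes the interval reached beyond -1 or 1: Rps12, Rps29, Rpl30, Rps19 and Rpl35a, named after their values were seen. The groups did not overlap, with BCP higher, for Rpl35a, Rps18, Rpl36a and Rpl3, which is 4 of 67 where 2.34% of all features did the same. No core gene had all BCP values under all sBCP values, where 3.06% of all features did.

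**Figure D1:**
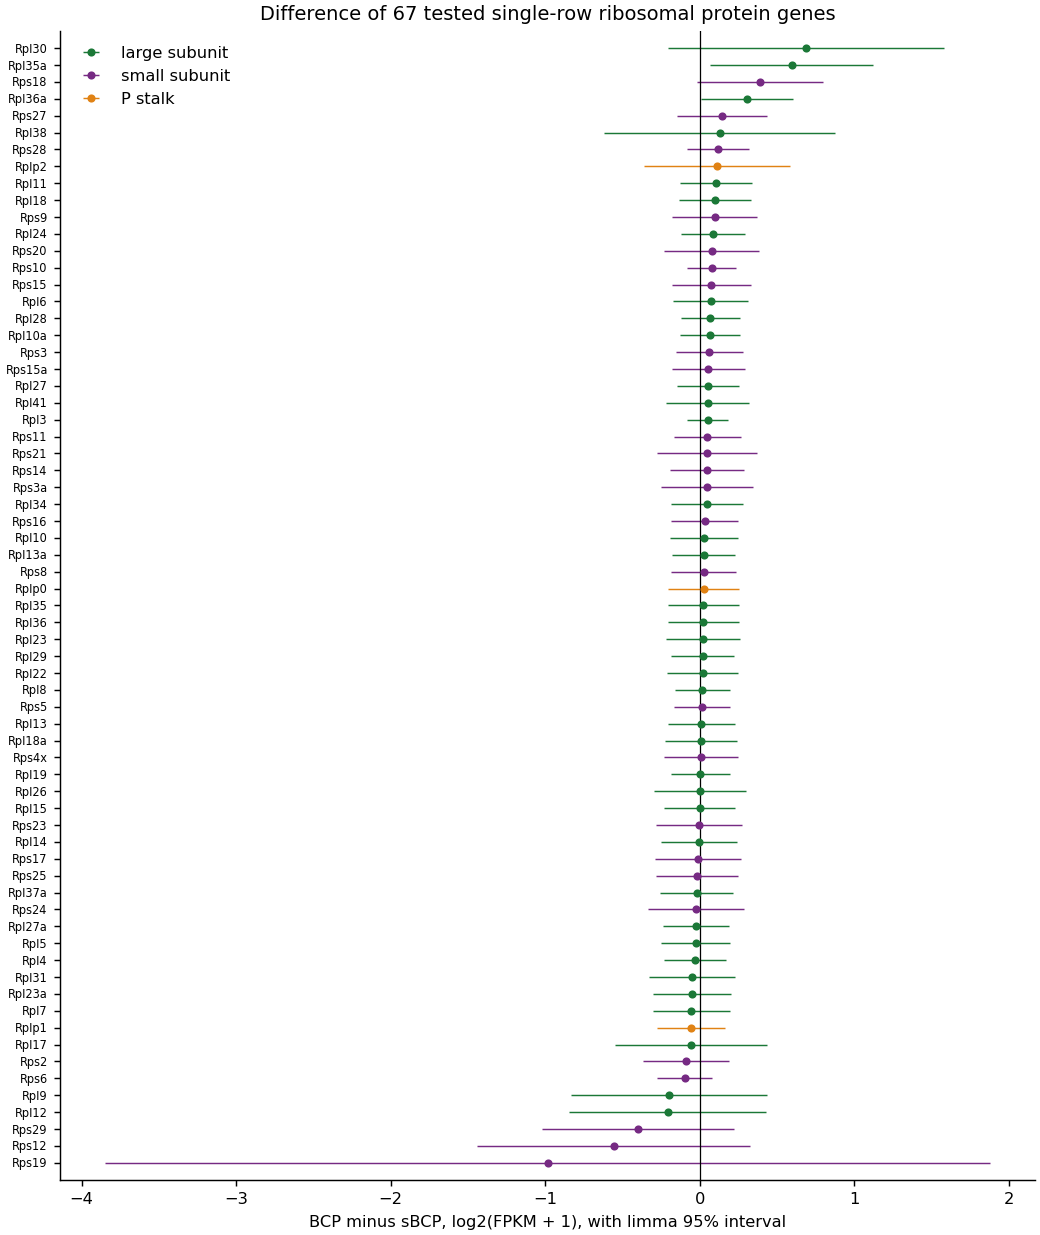
BCP minus sBCP difference of log2(FPKM + 1) for each of the 67 core genes tested, with limma's 95% interval, coloured by the part of the ribosome (3 BCP and 3 sBCP libraries). For 52 genes the point lies within 0.1 of 0, and the interval is widest for Rps19.

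Rplp0, often used as a reference gene, was at 484, 560 and 461 FPKM in BCP replicates 1, 2 and 3 and at 478, 486 and 512 FPKM in sBCP replicates 1, 3 and 4. The groups overlapped, with BCP replicate 2 highest and BCP replicate 3 lowest. The difference was 0.024 on the log2 scale (SE 0.096, 95% interval -0.20 to 0.25; limma adjusted p = 1.00). Rps6, the small-subunit protein phosphorylated by the S6 kinases, was at 134, 133 and 124 FPKM in the BCP libraries and 147, 130 and 142 in the sBCP libraries. These groups overlapped as well, and the difference was -0.098 (SE 0.075; limma adjusted p = 1.00).

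Among genes with the largest positive differences were Rpl30, Rpl35a, Rps18, Rpl36a and Rps27, at 0.69, 0.59, 0.39, 0.31 and 0.14 on the log2 scale, each with a limma adjusted p of 1.00. Rpl36a of the large subunit was at 75.2, 93.3 and 78.2 FPKM in the BCP libraries and 70.6, 56.1 and 72.8 in the sBCP libraries, and every BCP value was above every sBCP value. Rps27, a zinc-finger protein of the small subunit, was at 270, 368 and 308 FPKM in the BCP libraries and 306, 280 and 266 in the sBCP libraries, with both groups overlapping. Rps12 of the small subunit was at 25.8, 74.9 and 71.5 FPKM in the BCP libraries and 76.3, 73.4 and 80.8 in the sBCP libraries. Its difference of -0.56 went with BCP replicate 1 alone being low, and 2 other rows described as S12 did not share that low value. The other negative extremes were Rps19 at -0.99, Rps29 at -0.40, Rpl12 at -0.21 and Rpl9 at -0.20.

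The libraries differed more within the BCP group than the groups did from each other. The summed FPKM of the 68 core genes was 11675, 14718 and 12707 in BCP and 13161, 12607 and 12537 in sBCP. The mean was 13033 ± 1547 in the BCP group and 12768 ± 342 in the sBCP group (SD, n = 3 each), a ratio of 1.02, which is 0.955 without BCP replicate 2 and 1.07 without BCP replicate 1. The 3 sBCP values all lay between the lowest and the highest BCP value. BCP replicate 2 held the highest value of 57 of the 68 genes, and BCP replicate 1 held the lowest of 44. Of 67 core genes above 0 in both, 65 were higher in BCP replicate 2 than in BCP replicate 1, with a median ratio of 1.24, where the median over all tested features was 1.04.

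**Figure D2:**
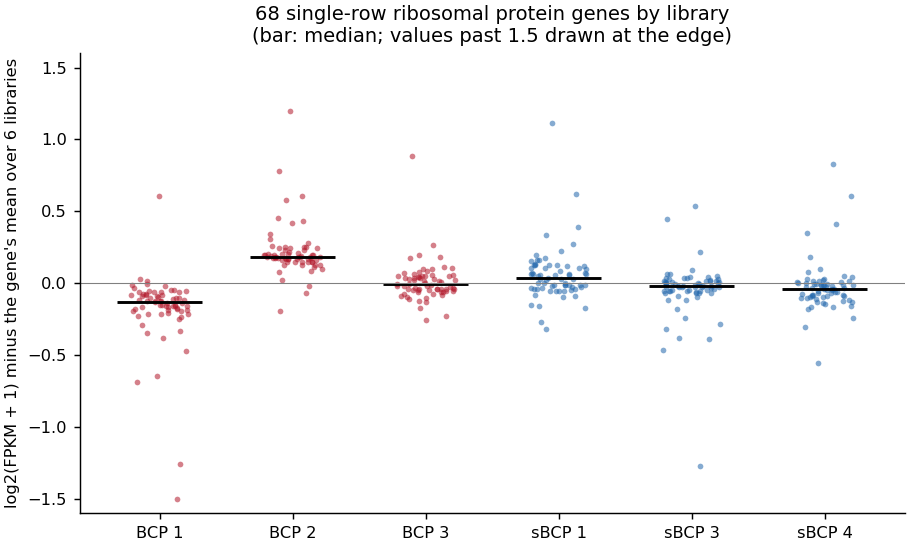
Each point is a core ribosomal protein gene in a library, as log2(FPKM + 1) minus the gene's mean over the 6 libraries; bars are medians. The median was -0.13, 0.18 and -0.0069 in BCP replicates 1, 2 and 3 and 0.032, -0.021 and -0.041 in sBCP replicates 1, 3 and 4.

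Other values stood highest or lowest in BCP replicate 2. Its relative depth was the highest, 1.31 relative to BCP replicate 1, which had the lowest. The summed level of 7 axon injury markers was 740 FPKM there and 250 to 284 in the other 5 libraries; Npy, a neuropeptide induced by nerve injury, was at 224 FPKM and the injury-induced transcription factor Atf3 at 40.8. The sum of 8 macrophage markers was 470 FPKM in BCP replicate 2 and 66.7 to 192 in the others. The summed level of the mitochondrial ribosomal proteins was 2319 FPKM there and 2134 to 2259 in the others. Schwann cell markers were lowest there, at a sum of 6660 FPKM against 8045 to 10492 in the others. Red blood cell markers were lowest as well, at 300 FPKM against 417 to 1174. The sums of neuronal, satellite glia and fibroblast markers lay within the range of the others. The part of depth or of these cell types in the higher ribosomal protein values was not tested.

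The row named Rpl39, for a small protein of the peptide exit tunnel, held little of the L39 signal. It was listed at 0 in BCP replicate 1 and was at 0.533 and 0.734 FPKM in BCP replicates 2 and 3 and 1.47, 0.711 and 0.540 in sBCP, and it did not pass the filter of 1 FPKM in at least 3 libraries. It spans 156 bases on the X chromosome of the deposited table, whose genome build was not given. LOC103692785, of the same span, lies on chromosome 18 at 6586925 to 6587080 on the minus strand, with no other feature of the table over it. By its gene number, RefSeq (GRCr8) holds it as the pseudogene Rpl39-ps12, placed on another chromosome than in the deposited table.

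LOC103692785 was at 22.03, 23.3 and 21.3 FPKM in the BCP libraries and 10.8, 8.15 and 8.96 in the sBCP libraries. Every BCP value was above every sBCP value, with means of 22.2 ± 1.01 and 9.30 ± 1.36 FPKM (SD, n = 3 each) and a ratio of 2.39. It was chosen for this difference, so no test is given. Another row described as L39, LOC103694404, lies on chromosome 14 of the deposited table. By its gene number RefSeq holds it as the pseudogene Rpl39-ps14, also placed on another chromosome. LOC103694404 was at 14.8, 18.8 and 15.1 FPKM in the BCP libraries and 32.8, 20.8 and 21.1 in the sBCP libraries, lower in every BCP library. The sum of both rows was 36.9, 42.2 and 36.4 FPKM in the BCP libraries and 43.6, 28.9 and 30.1 in the sBCP libraries, and these groups overlapped.

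In all, 7 rows were described as L39. Their sum was 63.4, 80.6 and 67.6 FPKM in the BCP libraries and 75.9, 58.1 and 52.8 in the sBCP libraries, with means of 70.5 ± 8.94 and 62.3 ± 12.1 (SD, n = 3 each) and a ratio of 1.13. The groups overlapped in this sum, unlike in LOC103692785. Of the sum, LOC103692785 took 34.7%, 28.9% and 31.6% in BCP and 14.2%, 14.0% and 17.0% in sBCP. LOC103694404 took 23.4%, 23.4% and 22.4% in BCP and 35.8% to 43.3% in sBCP. These are shares of FPKM over rows of unlike length, not shares of reads. The row LOC103690821, at 14.4 to 20.1 FPKM, is described as L39 in the table and spans 2977 bases on the X chromosome. By its gene number, however, RefSeq holds it as the pseudogene Rpl31-ps12. How the authors assigned reads shared by copies was not given, and the part of that assignment in the difference of LOC103692785 was not tested.

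**Figure D3:**
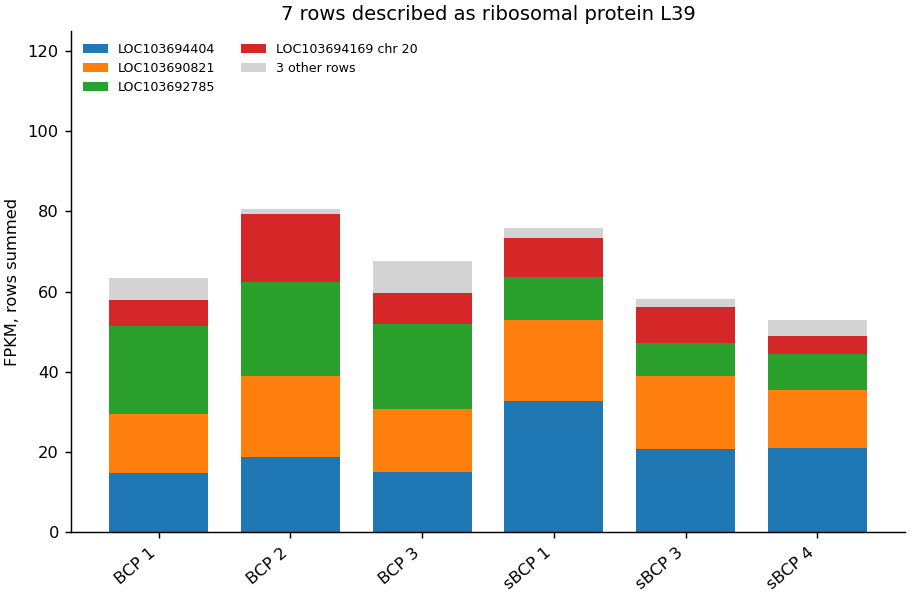
Stacked FPKM of the 7 rows described as ribosomal protein L39 in each library. The LOC103692785 segment is larger in the 3 BCP libraries and the LOC103694404 segment in the 3 sBCP libraries, while the whole bars of both groups overlap.

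Like Rpl39, several other rows with a core name were low. There were 6 core genes with a mean under 20 FPKM, and all 6 span under 700 bases, as do 9 of the 68 core rows in all. Rpl39 was at 0.665 FPKM on average, Rps29 at 1.72, Rpl9 at 4.49, Rpl35a at 4.76, Rpl38 at 10.8 and Rps18 at 18.7. For each of them another row of the table, described as the same protein, had a higher mean. The row Rps29 stood at 1.00 to 3.00 FPKM while LOC108350501, also described as S29, was at 389, 489 and 396 FPKM in the BCP libraries and 467, 412 and 383 in the sBCP libraries. Rpl38 was at 8.73, 15.9 and 9.04 FPKM in the BCP libraries and 9.03, 15.4 and 6.69 in the sBCP libraries, high in BCP replicate 2 and sBCP replicate 3. LOC682793, also described as L38, was at 42.6, 17.4 and 41.4 FPKM in the BCP libraries and 43.4, 16.3 and 50.5 in the sBCP libraries, low in those same libraries, and the sum of the 5 L38 rows stayed between 64.5 and 71.8 FPKM. For S18 the row Rps18l1, with a span of 3677 bases, was at a mean of 81.0 FPKM and Rps18 at 18.7.

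The non-overlap of Rpl35a and Rps18 rested on such low rows. Rpl35a was at 3.97, 8.47 and 5.62 FPKM in the BCP libraries and 3.58, 3.44 and 3.48 in the sBCP libraries. The sum of the 4 rows described as L35a was 182, 257 and 215 FPKM in the BCP libraries and 232, 177 and 184 in the sBCP libraries, and the groups overlapped. For S18 the sum of both rows was 92.0, 123 and 96.1 FPKM in the BCP libraries and 96.8, 92.7 and 97.3 in the sBCP libraries, which overlapped too. The higher row Rpl36a has another row as well: the sum of both was 101, 125 and 107 FPKM in the BCP libraries and 101, 84.4 and 105 in the sBCP libraries, BCP replicate 1 fell within the sBCP range, and the difference was 0.19 (SE 0.12) where that of the row Rpl36a was 0.31. Rpl3, which lies at the peptidyl transferase centre, has no other row: it was at 117, 117 and 119 FPKM in the BCP libraries and 112, 113 and 115 in the sBCP libraries, a difference of 0.050 (SE 0.057; limma adjusted p = 1.00).

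For some proteins, rows described as the same protein differed in opposite directions between libraries. In others they moved together: Rpl8 and LOC100360117, both described as L8, were both highest in BCP replicate 2, at 188 and 182 FPKM. The grouping of rows by described protein was chosen after the values were seen. Rps19, a small-subunit protein needed for the maturation of that subunit, was at 5.24, 168 and 135 FPKM in the BCP libraries and 159, 52.4 and 130 in the sBCP libraries, a 31.99-fold range. Its copy Rps19l2 was at 194, 102 and 100 FPKM in the BCP libraries and 79.7, 166 and 101 in the sBCP libraries, high in the libraries where Rps19 was low. The sum of the 4 rows described as S19 was 238, 282 and 246 FPKM in the BCP libraries and 253, 253 and 243 in the sBCP libraries, a 1.18-fold range. On the summed values the difference was 0.030 (95% interval -0.17 to 0.23; limma adjusted p = 1.00), where that of the row Rps19 alone was -0.99 (-3.85 to 1.88).

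Rpl7a, a large-subunit protein that hosts small nucleolar RNAs in its introns, has 2 rows on chromosome 3 of 2424 bases each, and each overlaps 4 small RNA features of the table. The row at 4867233 to 4869656 was at 58.4, 65.0 and 65.1 FPKM in the BCP libraries and 6.52, 14.7 and 67.5 in the sBCP libraries. The row at 5459160 to 5461583 was at 52.7, 57.7 and 56.6 FPKM in the BCP libraries and 82.9, 97.4 and 63.3 in the sBCP libraries, lower in every BCP library (limma unadjusted p = 0.0103, adjusted p = 1.00). Their sum was 111, 123 and 122 FPKM in the BCP libraries and 89.4, 112 and 131 in the sBCP libraries, and the groups overlapped. Rps27a, made as a fusion with ubiquitin, showed an exchange like that between the 2 Rpl7a rows. Its row on chromosome 14 was at 209, 158 and 131 FPKM in the BCP libraries and 210, 116 and 264 in the sBCP libraries, and that on chromosome 5 at 163, 322 and 304 and at 243, 300 and 121. The sum of both was 372, 480 and 435 FPKM in the BCP libraries and 453, 416 and 385 in the sBCP libraries.

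The row Rpl30, which spans 461 bases, had the largest positive difference among core genes. It was at 173, 135 and 128 FPKM in the BCP libraries and 143, 46.4 and 106 in the sBCP libraries. The row LOC100362027, also described as L30 and spanning 2671 bases, was at 62.5, 180 and 157 FPKM in the BCP libraries and 175, 237 and 143 in the sBCP libraries. On the sum of the 4 L30 rows the difference was -0.028 (SE 0.13), where that of the Rpl30 row was 0.69 (SE 0.38). Rpl12, part of the stalk base, was at 119, 222 and 139 FPKM in the BCP libraries and 133, 226 and 188 in the sBCP libraries, and the sum of its 4 rows differed by 0.040 (SE 0.11) in place of -0.21 (SE 0.27).

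**Figure D4:**
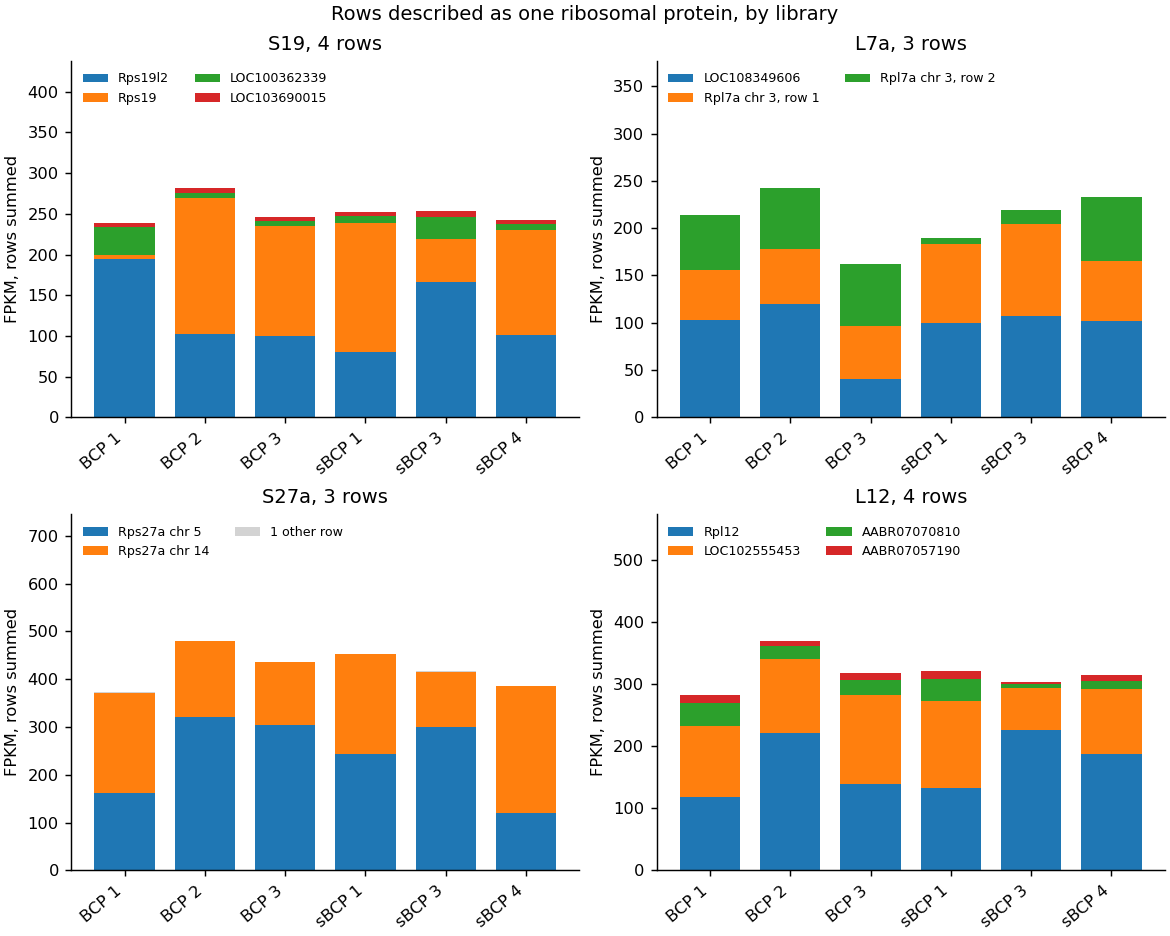
Stacked FPKM of the rows described as S19, L7a, S27a and L12 in each library. Single segments change height between libraries of the same group, while the S19 bars stay between 238 and 282 FPKM; row 1 of Rpl7a is the row that starts at 5459160.

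Over all proteins, 78 were described by 192 rows of the table, of which 106 lie outside the name rule. Of 40 proteins with at least 2 rows at a mean of 5 FPKM or more, 17 had a row whose highest library was over 2 times its lowest. Only 1 of the 40 sums ranged that far, that of S30, whose gene Fau was at 97.0 FPKM in sBCP replicate 3, against 239 to 264 elsewhere. The median range was 1.29-fold for these sums and 1.90-fold for the widest row of each. That row was picked for its range, so a narrower sum follows in part from the choice. For the 37 proteins with only 1 row at a mean of 5 FPKM or more, the median range of the sum was 1.24-fold. With the rows summed and L39 left out, limma called 0 of 77 proteins, with 1 at an unadjusted p under 0.05, S26 at 2.19 to 3.52 FPKM. The differences ran from -0.30 to 0.41 with a median of 0.023, 74 were within 0.25 of 0, and for 73 the 95% interval lay inside -0.5 to 0.5. For the 23 core genes with no other row the differences lay between -0.059 and 0.11.

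Of the 8 paralogs, 1 was too low to be tested, and Rpl3l stands apart. Rpl3l, which replaces Rpl3 in skeletal and heart muscle, was at 0.0686, 0.0947 and 0.244 FPKM in the BCP libraries and 2.82, 2.02 and 1.42 in the sBCP libraries. Every sBCP value was above every BCP value, and the means were 0.136 ± 0.0945 and 2.09 ± 0.703 FPKM (SD, n = 3 each), a difference of -1.42 on the log2(FPKM + 1) scale. It passed the filter only through the sBCP libraries, where it was high, so no test is given. Of the 68 core genes, 0 are marked significant in the authors' deposited table, where 0.639% of all 23800 features are. The 2 of 95 members marked there, Rpl3l and LOC103692785, are those given no test here.

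Skeletal muscle markers moved with Rpl3l. Of 10 listed markers 8 were found in the table, each with all BCP values under all sBCP values, where 3.06% of all features did the same. Myl1, Tnnc2 and Tnni2 were under 1 FPKM in every BCP library, and Mb in every BCP library but replicate 1. Like Rpl3l, these markers passed the filter only through the sBCP libraries. The summed level of the 8 markers was 22.4, 14.0 and 13.6 FPKM in the BCP libraries and 954, 545 and 537 in the sBCP libraries. Mb, the muscle oxygen carrier, was listed at 0 in BCP replicates 2 and 3. The part of muscle tissue in the level of Rpl3l was not tested.

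**Figure D5:**
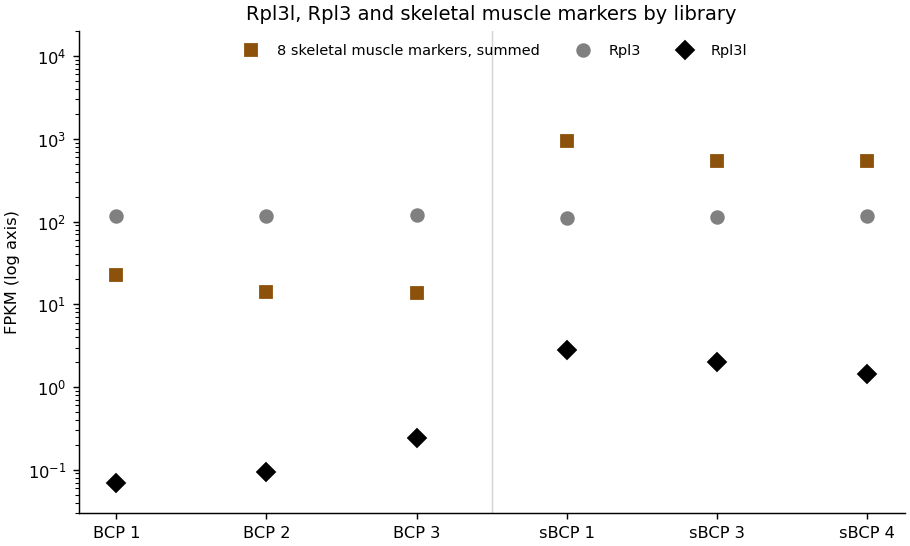
FPKM of Rpl3l, of Rpl3 and of 8 summed skeletal muscle markers in each library, on a log axis. Rpl3l and the markers are higher in all 3 sBCP libraries, while Rpl3 stays between 112 and 119 FPKM.

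None of the other paralogs tested was called, and Rpl3l is given no test. Rps27l, a p53-responsive relative of Rps27, was at 16.6, 18.7 and 14.8 FPKM in the BCP libraries and 14.0, 13.9 and 13.9 in the sBCP libraries, higher in every BCP library (difference 0.24; limma unadjusted p = 0.0425, adjusted p = 1.00). Rps4y2, a relative of Rps4x, was at 5.83, 4.61 and 3.97 FPKM in the BCP libraries and 7.53, 5.79 and 6.94 in the sBCP libraries, with an overlap between the groups (difference -0.42; limma unadjusted p = 0.0267, adjusted p = 1.00). Rpl7l1 was at 24.4, 23.7 and 24.1 FPKM in the BCP libraries and 26.7, 26.8 and 24.7 in the sBCP libraries (difference -0.11; limma adjusted p = 1.00). Rpl36al, Rpl22l1 and Rpl10l stood at mean levels of 74.2, 23.7 and 2.18 FPKM with differences of 0.012, -0.013 and 0.073. Rpl39l, at a mean of 0.274 FPKM, was listed at 0 in BCP replicate 1 and sBCP replicate 1 and was not tested.

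Of the 7 copies with a suffix, 6 were tested and 0 called, and of the 10 rows that share a core name 0 of 10 were called. Rps10l1, Rps4x-ps9 and Rps15al4 stood at mean levels of 77.9, 54.8 and 7.50 FPKM with differences of 0.10, -0.15 and 0.26. Rpl35al1 was listed at 0 in BCP replicate 1 and was at 4.23 to 10.7 FPKM in the other libraries, and Rpl30l1, at a mean of 0.133 FPKM, was not tested. The binding protein Rps19bp1 was at 13.7, 15.4 and 16.8 FPKM in the BCP libraries and 16.8, 17.6 and 15.2 in the sBCP libraries, and these groups overlapped (difference -0.11; limma adjusted p = 1.00). Rpl32, of the large subunit, was at 185, 235 and 195 FPKM in the BCP libraries and 191, 197 and 191 in the sBCP libraries for its row on chromosome 4, and its row on chromosome 6 stood at a mean of 6.46 FPKM. Rpl21, also of the large subunit, has 4 rows: those on chromosomes X, 13 and 3 stood at means of 114, 71.4 and 7.56 FPKM with differences of 0.066, -0.10 and -1.002, and the last was listed at 0 in sBCP replicate 1. Its row on chromosome 12 was at 80.7, 196 and 78.1 FPKM in the BCP libraries and 158, 177 and 148 in the sBCP libraries, with a difference of -0.57 (SE 0.34; limma adjusted p = 1.00). Without BCP replicate 2 this row was called lower, at -1.01 (limma adjusted p = 0.0282). The sum of the 4 Rpl21 rows was 258, 403 and 258 FPKM in the BCP libraries and 346, 396 and 335 in the sBCP libraries. Over all 6 libraries this sum differed by -0.26 (SE 0.18), while in BCP replicates 1 and 3 it lay under every sBCP value. The sum was not tested without BCP replicate 2. Among subunits that the names do not cover, these were not called either: Rpsa, at 406, 486 and 428 FPKM in the BCP libraries and 478, 450 and 452 in the sBCP libraries, and the scaffold Rack1, whose expressed row was at a mean of 98.6 FPKM, had differences of -0.067 and 0.093.

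Genes that act around the ribosome were read from the same fit, from lists chosen with earlier results of these data known. Over all features tested, 0.0146% were called higher, 0.168% were called lower and 45.5% lay above 0, with a median of -0.011. Of 13 elongation factors and other TOP mRNAs 0 were called, with 11 above 0 and a median of 0.046; Eef1g, a subunit of elongation factor 1, was at 350, 398 and 351 FPKM in the BCP libraries and 331, 336 and 364 in the sBCP libraries. Of 21 initiation factors 0 were called (median -0.018), and of 33 genes of ribosome assembly 0 were called (median -0.00092). Ltv1, which takes part in export and maturation of the small subunit, was at 8.39, 9.47 and 9.08 FPKM in the BCP libraries and 10.3, 10.2 and 11.4 in the sBCP libraries, lower in every BCP library (limma unadjusted p = 0.0422, adjusted p = 1.00). Of 21 genes of mTOR and S6 kinase control and 10 of the ribosome stress response 0 were called, with medians of -0.011 and 0.045; Larp1, the reader of the TOP motif, was at 49.4, 44.0 and 50.2 FPKM in the BCP libraries and 50.7, 49.4 and 54.3 in the sBCP libraries.

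Of 78 mitochondrial ribosomal proteins 0 were called, with 45 above 0 (57.7%, against 45.5% of all features) and a median of 0.013. Mrps24 was at 18.5, 20.5 and 18.7 FPKM in the BCP libraries and 9.02, 17.0 and 11.2 in the sBCP libraries, higher in every BCP library, with a difference of 0.63 (limma unadjusted p = 0.0157, adjusted p = 1.00). No member of these lists passed the test in either direction.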

How the data were processed

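Per the file headers, the deposited values are FPKM per Ensembl gene in each of 6 libraries, with a p-value and a significance mark per gene from the authors. Their test, aligner, counter and genome build are not given in the sources used here. Per the labels' protocols, polyadenylated RNA from 5 µg of total RNA was sequenced in pairs. Differences were fitted with limma 3.58.1 (R 4.3.3) on log2(FPKM + 1) for the 13710 of 23800 features that reached 1 FPKM in 3 or more of the 6 libraries. The fit used a variance trend and no covariate, and p-values were adjusted over all these features (Benjamini-Hochberg, 0.05). Adding 1 makes the differences of low genes too small. The test was checked on simulated data. The members, lists and named genes were chosen with earlier results of these data known. The named genes are Rpl39, Rplp0, Rps6 and LOC103692785, core genes with extreme levels or differences, paralogs, subunits outside the name rule, the highest copies and the smallest p of each list. Rows were grouped by the protein that the table's description names. FPKM give no counts, so no counting interval is printed. Alternatives were other pseudocounts, filters, scalings, variance models, a replicate block and leaving out each library. Figures were drawn with matplotlib 3.10.9. A gene that the naming rule takes is not reported here.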

Additional observations from a re-analysis of the deposited data

How the results depend on the processing

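No core ribosomal protein gene was called in either direction under any alternative run, summed rows included. Over all features, 2 were called higher and 23 lower; the count of higher calls was 5 with no filter, 1 at a mean of at least 5 FPKM, 4 with array weights and 0 to 7 when a library was left out. The count of lower calls was 14 with no filter, 35 with array weights and 13 to 24 when a library was left out. The number of core genes with a difference above 0 (44 of 67) was 28 with quantile normalization and 11 (without BCP replicate 2) to 62 (without BCP replicate 1) when a library was left out; the cause was not tested. Their median difference ran from -0.059 to 0.097 over those fits, and the log2 difference of LOC103692785 from 1.10 to 1.31 over all alternatives. With the replicate number as a block, 10 features were called higher and 28 lower, and 11 core genes lay above 0 with a median of -0.078; only numbers 1 and 3 are shared, and the deviations of same-numbered libraries correlated at 0.064 and -0.10, so the numbers are no evidence of pairing. For 33 named members with a test, Rpl3l left out, 523 of 524 values stayed on their side of the threshold, and the remaining 1, Rpl21 on chromosome 12 without BCP replicate 2, passed it. The sign changed in 51 of these values, spread over 20 members, and 0 of those 51 were called. Rps19 turned from -0.99 to 0.55 without BCP replicate 1, Fau from 0.42 to -0.049 without sBCP replicate 3 and Rps29 from -0.40 to 0.060 with array weights. Array weights gave sBCP replicate 3 a weight of 6.98. With 3 libraries a group and unknown depth, small differences of low rows were not detectable.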
